A study of Mus musculus with 11 samples.

Results

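Snx30, Lbh, Stard13, Gab1, Mlf1, Bcl7a, Srgap2, Btg2 and Ncoa2 are 9 of the 24490 mouse genes counted in granulosa cells after knockdown of Akt1. They were chosen by their counts: each had more reads in every pool of Akt1 siRNAs than in cells given a scrambled siRNA, so their excess over scramble is how they were found and is given below as a description, with no test. All 9 were found in the counts and all 9 passed the filter on low counts. How many of the 9 passed a threshold against scramble is given beside the share of all genes that did, as part of that description. A test of the 9 is read only between pools, where scramble cells do not enter. The choice used the pool values too, so this test is not free of it.

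Granulosa cells, the somatic cells that surround the oocyte and make oestradiol, were primary ovarian cells of RjOrl:SWISS mice. They received 30 pmol of siRNA with Lipofectamine RNAiMax, the mix was replaced at 5 h and the cells were lysed for RNA at 30 h. There were 2 libraries from each of 4 Akt1 pools and 3 from cells given scramble, and a pool combined 3 of 4 siRNAs to Akt1. The siRNA left out was number 9 in pool 1, number 7 for pool 2, number 8 for pool 3 and number 6 for pool 4, if the numbers of the pools in the protocol and in the sample titles mean the same pools, which is an assumption. Any 2 pools therefore had 2 siRNAs in common, and the pools are not separate tests of the same knockdown. The labels do not say whether the libraries of a group came from separate cultures, so p-values measure the spread between these libraries, which may be technical. In bulk RNA, fewer cells of a type and less RNA per cell cannot be told apart.

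AKT1 is a kinase that acts downstream of growth factor and insulin receptors. It keeps FOXO transcription factors out of the nucleus and, through mTORC1, raises translation and growth. In the follicle, FSH and IGF1 use this kinase in granulosa cell growth and steroid production. The 9 genes belong to different parts of the cell. Gab1 encodes a docking protein that recruits PI3-kinase and SHP2 to activated receptors. Stard13 and Srgap2 encode GTPase-activating proteins of small GTPases, and Snx30 encodes a sorting nexin of endosomes. Lbh, Ncoa2 and Bcl7a encode nuclear proteins, and Btg2 encodes an antiproliferative protein that brings the CCR4-NOT deadenylase to mRNAs. Mlf1 encodes a myeloid leukaemia factor, a protein that can move between cytoplasm and nucleus.

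Levels are given in CPM, the reads of a gene per 1000000 gene reads of its library, ERCC spike-in lines not counted. Libraries held 23851293 to 32643158 gene reads. Akt1 had 63.9 and 58.6 CPM in pool 1, 52.7 and 55.1 in pool 2, 79.3 and 81.7 in pool 3 and 55.1 and 62.4 in pool 4, against 529, 428 and 399 CPM in scramble replicates 1, 2 and 3. No pool library overlapped a scramble library. Of 12 granulosa markers, Fshr and Amh stayed below 1 CPM in every library and Inha was the highest; their summed level was 2651 to 4357 CPM in pools and 4477 to 5125 CPM in scramble. Markers of endothelial cells (13.3 to 19.2 against 13.2 to 14.3 CPM), immune cells (4.14 to 6.55 against 4.20 to 6.98 CPM) and oocytes (2.89 to 5.66 against 5.37 to 8.00 CPM) were low in both. Theca and stroma markers summed to 2937 to 3792 CPM in pools and 3699 to 4691 CPM in scramble. Acta2 was the highest of them and Cyp17a1 stayed below 1 CPM. Epithelial markers summed to 309 to 357 CPM in pools and 306 to 581 CPM in scramble. The part of these markers in the results was not tested.

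Scramble replicate 1 was unlike the 10 libraries beside it. Its log2 CPM correlated with theirs at a median of 0.947, where every other library had 0.988 to 0.992, and it differed from scramble replicates 2 and 3 by a chi-square per degree of freedom of 280 and 300, where other pairs within a group gave 2.69 to 6.28. Results against scramble are therefore given with and without it, and a value given one way says which. Where it is left out, 2 scramble libraries remain.

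The plot of CPM by library shows the pattern by which the genes were chosen. All 8 pool libraries were above all 3 scramble libraries for 8 of the 9 genes, against 975 of 14144 genes tested (6.89%). The exception was Mlf1, which was highest in scramble replicate 1. Above scramble replicates 2 and 3 alone, the count was 9 of 9, against 12.7% of genes. The choice of the genes used these values, so nothing is read from the counts.

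**Figure D1:**
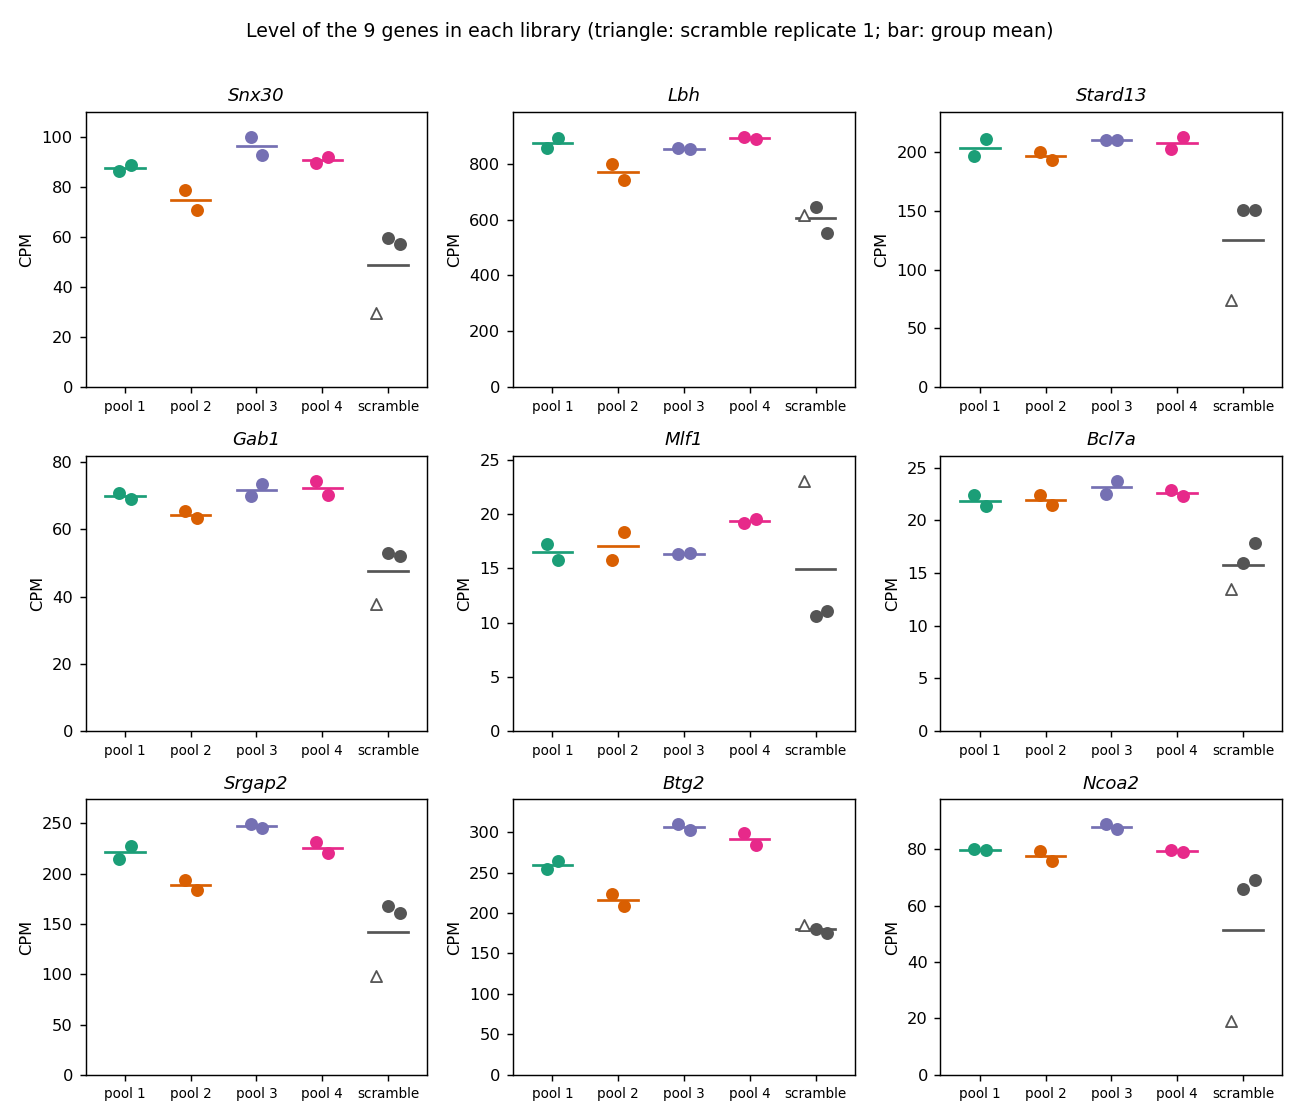
Level of each of the 9 genes in every library, in CPM on an axis of its own from 0, with pools 1 to 4 left of scramble; each point is 1 library, the triangle is scramble replicate 1 and the bar is the group mean. Pool libraries lie above scramble replicates 2 and 3 in every panel, and Mlf1 is the gene whose scramble replicate 1 (23.1 CPM) lies above every pool library.

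Gab1 lies on chromosome 8 at 80764438 to 80880519 (GRCm38, minus strand), with 12 exon blocks. It had 70.8 and 69.1 CPM in pool 1, 65.4 and 63.3 in pool 2, 70.0 and 73.6 in pool 3 and 74.5 and 70.4 in pool 4, against 37.8, 52.9 and 52.0 CPM in scramble replicates 1, 2 and 3. The pool libraries covered a narrow range above all 3 scramble libraries. The mean was 69.6 ± 3.77 CPM in pools and 47.6 ± 8.49 CPM in scramble (SD, n = 8 and 3), a ratio of 1.46, or 1.33 over scramble replicates 2 and 3. An exon of Gm31105 overlaps Gab1 on the other strand, and no source used here states the strand setting of the authors' counting, so reads of the 2 cannot be told apart.

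Stard13, on chromosome 5 at 151037510 to 151233836 (minus strand), encodes a GTPase-activating protein of RHOA and CDC42 with a lipid-binding START domain. It had 196 and 210 CPM in pool 1, 200 and 193 in pool 2, 210 and 210 in pool 3 and 202 and 212 in pool 4, against 74.1, 150 and 150 CPM in scramble replicates 1, 2 and 3. Pools averaged 204 ± 7.55 CPM and scramble 125 ± 43.9 CPM (SD, n = 8 and 3). All pools lay close together, and scramble replicate 1 was far below its 2 fellows: the ratio was 1.64 over all scramble libraries and 1.36 over replicates 2 and 3. Exons of Gm42906 overlap Stard13 on the same strand.

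Srgap2, on chromosome 1 at 131285251 to 131527352 (minus strand), encodes a protein with an F-BAR domain that bends membranes and a GTPase-activating domain for RAC1. It had 215 and 228 CPM in pool 1, 194 and 183 in pool 2, 249 and 245 in pool 3 and 232 and 220 in pool 4, against 98.6, 168 and 161 CPM in scramble replicates 1, 2 and 3. Here the pools separated: both pool 2 libraries were the lowest of the 8 and both pool 3 libraries the highest, and all were above scramble. The means were 221 ± 23.0 CPM in pools and 142 ± 38.2 CPM in scramble (SD, n = 8 and 3), a ratio of 1.55, or 1.34 over scramble replicates 2 and 3.

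Snx30, on chromosome 4 at 59805840 to 59904737 (plus strand), encodes a sorting nexin with a BAR domain that acts at endosomes. It had 86.6 and 88.7 CPM in pool 1, 78.9 and 70.8 in pool 2, 100 and 92.7 in pool 3 and 89.8 and 92.1 in pool 4, against 29.6, 59.8 and 57.4 CPM in scramble replicates 1, 2 and 3. Pool 2 was again the lowest pool and pool 3 the highest, without overlap of either with the other pools or of any pool with scramble. Pools averaged 87.5 ± 9.01 CPM and scramble 48.9 ± 16.8 CPM (SD, n = 8 and 3), and the ratio was 1.79, or 1.49 over scramble replicates 2 and 3. Exons of Gm12543 overlap Snx30 on the same strand.

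Lbh, on chromosome 17 at 72918305 to 72941947 (plus strand), encodes a small transcriptional cofactor of limb bud and heart and is known as a target of canonical WNT signalling. It had 856 and 892 CPM in pool 1, 798 and 743 in pool 2, 854 and 852 in pool 3 and 895 and 888 in pool 4, against 616, 646 and 554 CPM in scramble replicates 1, 2 and 3. This gene had the highest level of the 9, and scramble replicate 1 lay between its fellows. The means were 847 ± 52.8 CPM in pools and 605 ± 47.3 CPM in scramble (SD, n = 8 and 3), a ratio of 1.40, or 1.41 over scramble replicates 2 and 3.

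Ncoa2, on chromosome 1 at 13139105 to 13374083 (minus strand), encodes a p160 coactivator of nuclear hormone receptors. It had 80.1 and 79.8 CPM in pool 1, 79.3 and 76.0 in pool 2, 88.9 and 87.1 in pool 3 and 79.7 and 79.2 in pool 4, against 19.2, 66.1 and 69.3 CPM in scramble replicates 1, 2 and 3. Most of its excess over the scramble mean came from replicate 1: the ratio was 1.58 with it and 1.20 without it, the smallest of the 9. Bcl7a, on chromosome 5 at 123343834 to 123374992 (plus strand), encodes a subunit of BAF chromatin remodelling complexes. It had 22.4 and 21.3 CPM in pool 1, 22.4 and 21.4 in pool 2, 22.5 and 23.8 in pool 3 and 22.9 and 22.3 in pool 4, against 13.5, 16.0 and 17.8 CPM in scramble replicates 1, 2 and 3. Pool libraries of Bcl7a hardly differed and none overlapped scramble, with means of 22.4 ± 0.777 CPM in pools and 15.8 ± 2.16 CPM in scramble (SD, n = 8 and 3). An exon of Gm15860 overlaps Bcl7a on the other strand.

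Btg2, on chromosome 1 at 134075170 to 134079120 (minus strand), is a known target of p53 as well as an early response gene. It had 255 and 264 CPM in pool 1, 224 and 209 in pool 2, 309 and 303 in pool 3 and 299 and 284 in pool 4, against 185, 180 and 176 CPM in scramble replicates 1, 2 and 3. The 3 scramble libraries lay close together and the pools spread widely above them, with pool 2 nearest to scramble. Pools averaged 268 ± 37.4 CPM and scramble 180 ± 4.65 CPM (SD, n = 8 and 3), a ratio of 1.49, or 1.51 over scramble replicates 2 and 3.

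Mlf1, on chromosome 3 at 67374097 to 67400003 (plus strand), was the gene with the fewest reads of the 9. It had 17.3 and 15.8 CPM in pool 1, 15.7 and 18.3 in pool 2, 16.3 and 16.4 in pool 3 and 19.2 and 19.6 in pool 4, against 23.1, 10.6 and 11.1 CPM in scramble replicates 1, 2 and 3. The pools lay between the scramble libraries, above 2 of them and below the other. Pools averaged 17.3 ± 1.52 CPM and scramble 14.9 ± 7.04 CPM (SD, n = 8 and 3), so the ratio was 1.16 over all scramble libraries and 1.59 over replicates 2 and 3. The means of the 4 pools, 16.4 to 19.4 CPM, were all above the mean of the 3 scramble libraries, but no pool library reached scramble replicate 1.

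On the log2 scale, fitted with edgeR to all 11 libraries, the difference of all pools from scramble was 0.79 ± 0.19 (SE) for Snx30, 0.66 ± 0.18 for Stard13, 0.61 ± 0.29 for Ncoa2, 0.58 ± 0.15 for Srgap2, 0.53 ± 0.12 for Btg2, 0.50 ± 0.11 for Gab1, 0.46 ± 0.09 for Bcl7a, 0.44 ± 0.08 for Lbh and 0.17 ± 0.20 for Mlf1. Without scramble replicate 1 it was 0.61 ± 0.10 for Mlf1, 0.53 ± 0.12 for Btg2, 0.52 ± 0.09 for Snx30, 0.44 ± 0.07 for Lbh, 0.38 ± 0.04 for Stard13, 0.36 ± 0.09 for Srgap2, 0.35 ± 0.05 for Gab1, 0.35 ± 0.06 for Bcl7a and 0.20 ± 0.05 for Ncoa2. Lbh and Btg2 kept their size in both fits, and the order of the other 7 depended on that library. The median of the 9 genes was 0.53 with all libraries and 0.38 without scramble replicate 1, beside medians over all genes of −0.02 and 0.00.

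A gene was called where its Benjamini-Hochberg adjusted p in edgeR's quasi-likelihood test, over all genes tested, was below 0.05. With all 11 libraries, 0 of the 9 were called in all pools against scramble, where 1 of 14144 genes was called (0.00707%), namely Akt1. At an unadjusted p below 0.05 the count was 7 of the 9, and among all genes 3968; DESeq2 called 7 of the 9 and 1147 of all genes, and limma-voom 0 and 1. Without scramble replicate 1, edgeR called 6 of the 9 higher, where 16 of 14062 genes were called higher (0.114%), and Srgap2, Btg2 and Ncoa2 were the 3 that were not. In that setting DESeq2 called 9 of the 9 higher and 282 of all genes, and limma-voom 6 and 14. These counts describe the choice of the 9 and nothing is read from them.

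Other genes called higher without scramble replicate 1 included 4930402H24Rik, Avl9, Col4a3, Eif4ebp2, Gm12295, Ninl, Osbpl3, Pik3ip1 and Tbc1d23. Their adjusted p-values by edgeR ran from 0.0324 to 0.0445. Pik3ip1, which encodes an inhibitor of PI3-kinase, was higher by 0.69 ± 0.11 on the log2 scale. Eif4ebp2, which encodes a translation repressor that mTORC1 inactivates, was higher by 0.27 ± 0.05. None of these was called in all pools against scramble with all 11 libraries.

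Each pool was then set against scramble on its own. The 4 comparisons share the scramble libraries, so their values stand side by side and do not repeat one another. Without scramble replicate 1, Btg2 was higher by 0.48, 0.27, 0.69 and 0.65 on the log2 scale in pools 1, 2, 3 and 4 (SE 0.04 each). Srgap2 was higher by 0.36, 0.18, 0.50 and 0.40 (SE 0.04), and Snx30 by 0.51, 0.34, 0.63 and 0.57 (SE 0.05). For these 3 genes the excess in pool 2 was the smallest. Stard13 was higher by 0.37, 0.37, 0.39 and 0.40 (SE 0.04) and Bcl7a by 0.31, 0.36, 0.37 and 0.36, values nearly equal from pool to pool. Lbh was higher by 0.48, 0.34, 0.42 and 0.51 (SE 0.05), Gab1 by 0.35, 0.28, 0.36 and 0.40 (SE 0.05), Mlf1 by 0.54, 0.63, 0.50 and 0.77 (SE 0.09) and Ncoa2 by 0.17, 0.18, 0.29 and 0.17 (SE 0.05).

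With all 11 libraries the same differences had wider errors and, for 7 of the 9, other sizes. Btg2 was higher by 0.47, 0.26, 0.70 and 0.65 in pools 1, 2, 3 and 4 (SE 0.09), and Lbh by 0.48, 0.35, 0.43 and 0.51 (SE 0.10), values close to those without scramble replicate 1. Larger excesses than without it were found for Ncoa2 (0.57 to 0.70 over the 4 pools, SE 0.44), Stard13 (0.64 to 0.68, SE 0.27), Snx30 (0.61 to 0.91, SE 0.27), Srgap2 (0.40 to 0.72, SE 0.21), Gab1 (0.43 to 0.56, SE 0.15) and Bcl7a (0.42 to 0.49, SE 0.13). Mlf1 had a smaller one, 0.10, 0.19, 0.07 and 0.33 (SE 0.29 to 0.30), each within about its standard error of 0.

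Without scramble replicate 1, all 9 were called higher in each pool, where the share of all genes called higher was 11.7% for pool 1, 1.92% for pool 2, 22.9% for pool 3 and 13.2% for pool 4, and 77 of 14062 genes (0.548%) were called higher in all 4. With all libraries, 1 of the 9 was called in pool 1 (0.424% of genes called higher), 0 in pool 2 (0%), 3 in pool 3 (4.15%) and 2 in pool 4 (0.544%). The rule used these contrasts, and nothing is read from the counts.

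**Figure D2:**
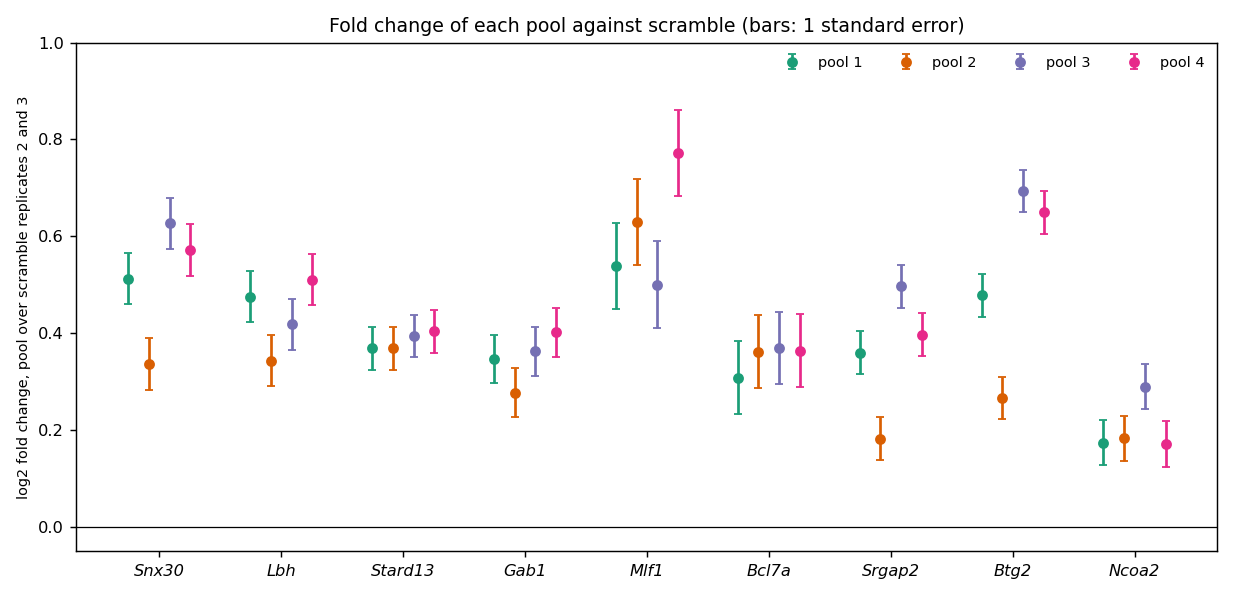
Fitted log2 difference of each pool from scramble (replicates 2 and 3) for the 9 genes; points are edgeR estimates and bars 1 standard error. Pool 2 lies lowest for Btg2 (0.27, against 0.48 to 0.69 in the other pools), and the pools coincide for Stard13 (0.37 to 0.40).

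Whether the pools differed among themselves was tested on the 8 pool libraries alone, with scramble left out. The choice still used the values of these libraries. Taking genes that were high in every pool may have favoured genes with little spread between pools. It may also have favoured genes that lie lower in pool 2. Neither effect was measured, so the test is given as a description. By edgeR's quasi-likelihood test with 3 degrees of freedom, 6 of the 9 differed among pools. Of the 14056 genes tested 50% did, so the share is near that of all genes. The adjusted p by edgeR was 2.27e-12 for Btg2, 5.12e-08 for Srgap2, 2.23e-05 for Snx30, 0.000594 for Lbh, 0.0147 for Mlf1 and 0.0273 for Ncoa2. It was 0.102 for Gab1, 0.761 for Stard13 and 0.798 for Bcl7a, which were not called. The calls of Mlf1 and Ncoa2 were not made by DESeq2 (adjusted p = 0.153 and 0.167). They were also lost in edgeR without either pool 4 library for Mlf1 (adjusted p = 0.0544 without replicate 1 and 0.0975 without replicate 2) and without either pool 3 library for Ncoa2 (0.207 and 0.052). In a fit that also held all 3 scramble libraries, whose spread then enters, edgeR called 0 of the 9 and 303 genes. Without scramble replicate 1 that fit called 4 of the 9 and 6096 genes. Lbh (adjusted p = 0.0541, edgeR) and Ncoa2 (0.0786) were then not called.

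Pool 2, the one without siRNA 7, was lower than the mean of the other 3 pools for 5 of the 9, where 22.5% of genes were called lower. The log2 difference was −0.34 ± 0.03 for Btg2 (adjusted p = 4.58e-12, edgeR), −0.23 ± 0.03 for Srgap2 (3.65e-08), −0.23 ± 0.04 for Snx30 (5.73e-06), −0.12 ± 0.03 for Lbh (0.000441) and −0.09 ± 0.04 for Gab1 (0.0335). For all 5, both pool 2 libraries lay below the other 6 pool libraries, as they did for 31.8% of genes. Pool 2 had the lowest mean CPM of the 4 pools for 7 of the 9, against 49.7% of genes. Pool 3 had the highest for 6, against 43.4%. These shares of all genes are no like background, since the choice used the same pool values. Without scramble replicate 1, pool 2 had 4.74% of all genes called against scramble. Pools 1, 3 and 4 had 28.9%, 49.1% and 31.3%. Genes chosen as higher in every pool may therefore tend to lie lower in pool 2, and no trait of the 9 is read from these counts. Without pool 2 replicate 2, Lbh was no longer called (adjusted p = 0.0877, edgeR). The call of Gab1 was lost under 8 of 16 alternatives, DESeq2 among them. In the fit that also held all 3 scramble libraries, Srgap2 (adjusted p = 0.693), Snx30 (0.801), Lbh (0.63) and Gab1 (0.903) were not called by edgeR, while the call of Btg2 was lost under 0 of 16 alternatives.

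Pool 3, the one without siRNA 8, was higher than the mean of the other pools for 4 of the 9, where 20.7% of genes were called higher. These were Btg2 at 0.23 ± 0.03 (adjusted p = 2.85e-08, edgeR), Srgap2 at 0.18 ± 0.03 (2.84e-06), Snx30 at 0.15 ± 0.04 (0.00106) and Ncoa2 at 0.11 ± 0.03 (0.00401). Both pool 3 libraries lay above the other 6 for the same 4 genes, as for 24.9% of genes. Without pool 3 replicate 1, Snx30 (adjusted p = 0.0985) and Ncoa2 (0.0574) were no longer called by edgeR. All 4 calls were lost in the fit that also held the 3 scramble libraries, Btg2 (adjusted p = 0.192) and Srgap2 (0.85) included. In pool 4, Btg2 (0.17 ± 0.03, adjusted p = 0.000142) and Lbh (0.10 ± 0.03, 0.0446) were called higher by edgeR, where 0.676% of genes were, but Btg2 neither without pool 4 replicate 1 (0.116) nor with scramble in the fit, and Lbh not under 11 of 16 alternatives. In pool 1, where 3.54% of genes were called, edgeR called 0 of the 9 (1 at an unadjusted p below 0.05), as did DESeq2 and limma-voom.

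For Stard13 and Bcl7a the 4 contrasts between pools had 95% confidence intervals that together ran from −0.08 to 0.09 and from −0.16 to 0.13 on the log2 scale. A difference of a pool from the mean of the others beyond these bounds was not seen in these libraries. Mlf1 had the opposite order to Btg2 in pool 3, at −0.15 ± 0.06 (adjusted p = 0.0571, edgeR), and its highest level in pool 4, at 0.22 ± 0.06 (0.0548), neither of them called. Each of these Mlf1 differences was called under 3 of 16 alternatives.

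Akt1 mRNA itself also differed among pools (adjusted p = 3.55e-09, edgeR). Its log2 difference from the other pools was −0.24 ± 0.04 in pool 2 (adjusted p = 3.2e-05, edgeR) and 0.43 ± 0.04 in pool 3 (4.8e-10). By its mean, pool 2 therefore had the least Akt1 mRNA and the lowest Btg2, Srgap2 and Snx30 of the pools, and pool 3 the most Akt1 mRNA and the highest of these 3 genes. The part of residual Akt1, or of a single siRNA, in these differences was not tested.

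**Figure D3:**
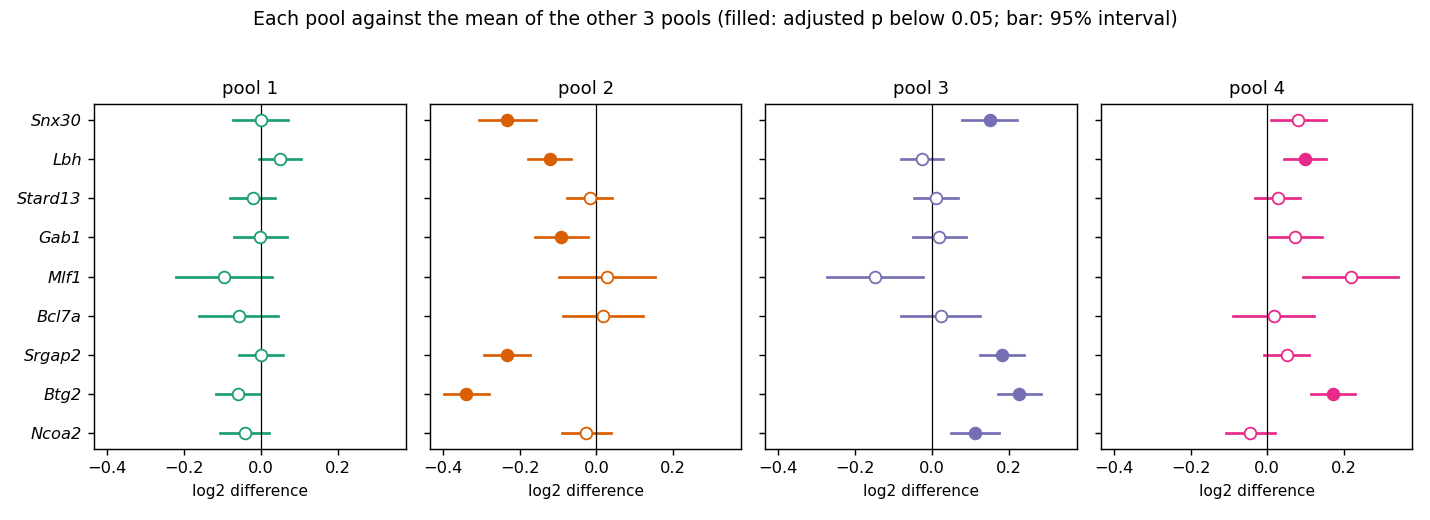
Log2 difference of each pool from the mean of the other 3 pools for the 9 genes, with 95% confidence intervals, from the fit to the 8 pool libraries; filled points have an adjusted p below 0.05. Pool 2 lies left of 0 and pool 3 right of 0 for Btg2, Srgap2 and Snx30 (−0.34 and 0.23 for Btg2), while the intervals of Stard13 stay within −0.08 and 0.09.

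Closest paralogs were listed for every member but Lbh. They were not used to choose the 9, although the list of paralogs was made with earlier results of these data known. All 13 that passed the filter were tested. In all pools against scramble edgeR called 0 of 13, with all libraries (4 at an unadjusted p below 0.05) and without scramble replicate 1 (2 at an unadjusted p below 0.05). DESeq2 called 1 in each setting, lower with all libraries and higher without scramble replicate 1, and limma-voom 0. Of all genes DESeq2 called 1147 and 572 in these settings. In single pools without scramble replicate 1, pool 1 had 2 of 13 called higher and 4 lower, where 11.7% of all genes were called higher and 17.2% lower. Pool 2 had 2 higher and 0 lower (1.92% and 2.82% of all genes), pool 3 had 0 higher and 8 lower (22.9% and 26.2%), and pool 4 had 3 higher and 6 lower (13.2% and 18.1%). With scramble replicate 1 included, Bcl7b in pool 3, which was lower, was the only call.

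Srgap1, a paralog of Srgap2, had 67.6 and 70.3 CPM in pool 1, 119 and 116 in pool 2, 55.3 and 58.8 in pool 3 and 63.7 and 70.8 in pool 4, against 44.5, 101 and 107 CPM in scramble replicates 1, 2 and 3. Pools 1, 3 and 4 lay below scramble replicates 2 and 3 and above replicate 1, and pool 2 lay above all 3. Without scramble replicate 1 its difference from scramble was −0.66, 0.16, −0.95 and −0.69 in pools 1, 2, 3 and 4 (SE 0.05), called lower in all but pool 2. With all libraries it was −0.34, 0.48, −0.63 and −0.37 (SE 0.32 to 0.33), with no call. Srgap2 was higher in the same 4 pools by 0.18 to 0.50 without scramble replicate 1.

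Other paralogs are given without scramble replicate 1 unless stated. Ncoa3, a p160 coactivator like Ncoa2, differed from scramble by −0.37, 0.05, −0.49 and −0.38 in pools 1, 2, 3 and 4 (SE 0.06), and Ncoa1 by −0.11, 0.02, −0.34 and −0.22. Bcl7b, the BAF subunit most like Bcl7a, differed by −0.26, 0.01, −0.53 and −0.36, and Srgap3 by −0.18, 0.03, −0.33 and −0.25. Of these 4 paralogs, none was called in pool 2. With all libraries their errors were 0.18 to 0.33 and Bcl7b in pool 3 (−0.75) was the one call; Ncoa1 and Srgap3 then lay on the positive side in pools 1 and 4, Ncoa1 at 0.20 and 0.10 and Srgap3 at 0.08 and 0.01. Gab2 was called in pool 3 alone, at −0.48, and Mlf2 at −0.22 in pool 3 and −0.15 in pool 4. Dlc1, a RHOA GTPase-activating protein like Stard13, was called higher in pools 1, 2 and 4 (0.15, 0.30 and 0.17) and not in pool 3 (−0.06, or 0.19 with all libraries). Stard8, of the same family, was called lower in pool 3 (−0.21) and higher in pool 4 (0.21), and had 0.13 and 0.14 in pools 1 and 2. Btg1 was called higher in pools 1, 2 and 4 (0.19, 0.20 and 0.17) and had 0.12 in pool 3. Snx7, the closest relative of Snx30, was called in no pool (−0.06, −0.01, −0.11 and −0.07), nor were Bcl7c and Gab3.

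Tested between pools, 9 of the 13 paralogs differed by edgeR, beside 50% of all genes. Pool 2 was called higher than the other pools for 8 and lower for 0. Among all genes 25.6% were called higher and 22.5% lower. The members called in pool 2 were all lower, a side their choice may have favoured. Pool 3 was called lower for 9 and higher for 0, where 24.2% and 20.7% of genes were called. The log2 difference of Srgap1 from the other pools was 0.93 ± 0.03 in pool 2 (adjusted p = 6.73e-23, edgeR) and −0.56 ± 0.04 in pool 3 (1.35e-14), where Srgap2 had −0.23 and 0.18. The difference between member and paralog was not tested as such.

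**Figure D4:**
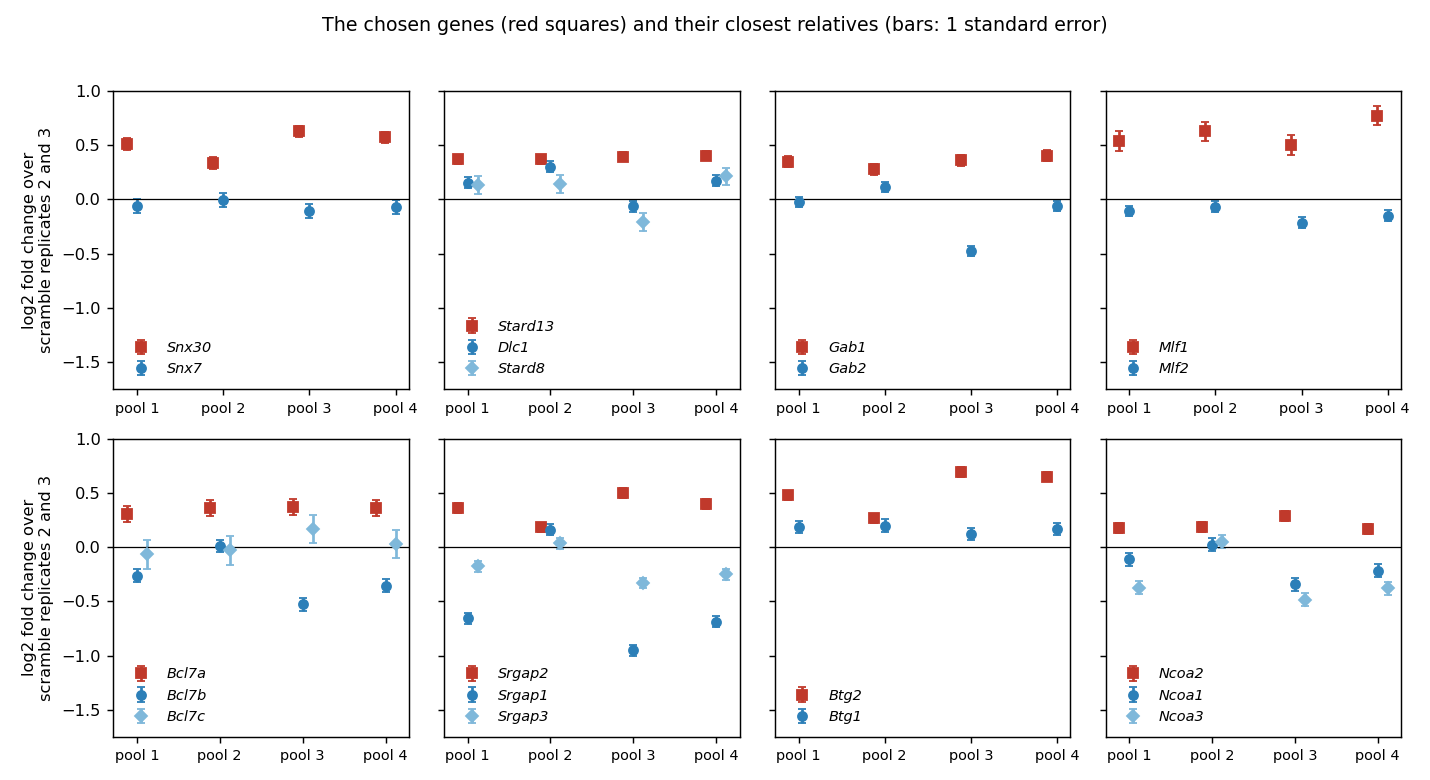
Log2 difference from scramble in each pool, without scramble replicate 1, for members (squares) and their closest paralogs by family. Lbh, for which no paralog was listed, and Gab3 are left out. Points are edgeR estimates and bars 1 standard error. Srgap1 lies at −0.66, 0.16, −0.95 and −0.69 in pools 1 to 4, while Srgap2 stays between 0.18 and 0.50.

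Partners and relatives of the 9 were counted in 11 lists, also made with earlier results known and with the 9 left out. In all pools against scramble with all libraries, edgeR called 0 of 131 listed genes, beside 1 of all 14144 genes tested. At an unadjusted p below 0.05 the counts were 33 and 3968. DESeq2 called 14 listed genes and 1147 of all genes, and limma-voom 0 and 1. Without scramble replicate 1, edgeR called 2 of 130, beside 66 of all 14062 genes (0.469%). Both were in the list of 21 FOXO-induced genes: Pik3ip1, which was higher by 0.69, and Ddit4, which encodes an mTORC1 inhibitor and was lower (−0.37 ± 0.07). Pik3ip1 had 20.4 to 26.1 CPM in the 8 pool libraries, against 18.6, 13.8 and 14.3 CPM in scramble replicates 1, 2 and 3. Ddit4 had 26.7 to 31.9 CPM in pools, against 42.7, 35.7 and 35.3 CPM in scramble. No library of the pools overlapped one of scramble for either gene. All pool libraries lay above all scramble libraries for 6.89% of genes, and the share below was not counted. Both genes were named because they were called, so nothing is read from this.

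By single pool, without scramble replicate 1, FOXO-induced genes had 8 called higher and 4 lower of 21 in pool 1, 4 and 1 in pool 2, 8 and 5 in pool 3, and 8 and 4 in pool 4. All genes had 17.2%, 2.82%, 26.2% and 18.1% called lower in these pools, beside the shares called higher given above. Pik3ip1 was called higher in every pool (0.83, 0.63, 0.50 and 0.78) and Ddit4 lower in every pool (−0.42, −0.27, −0.37 and −0.41). Median differences of the FOXO list were −0.05, 0.05, 0.03 and 0.01, beside 0.00 to 0.01 for all genes. With all libraries they were 0.14, 0.19, 0.22 and 0.20, beside −0.03 to −0.01 for all genes, and Pik3ip1 was called higher in pools 1 and 4.

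Partners of the GTPase-activating proteins held the largest single values. The counts and values that follow leave out scramble replicate 1 unless stated. Of 11 genes of the DLC family and the RHOA pathway, 3 were higher and 2 lower in pool 1, 1 and 0 in pool 2, 4 and 3 in pool 3, and 5 and 2 in pool 4. For this list and the next, the shares of all genes called higher and lower were 11.7% and 17.2% in pool 1 and 1.92% and 2.82% in pool 2. They were 22.9% and 26.2% in pool 3 and 13.2% and 18.1% in pool 4. Rhoa, which encodes the GTPase that STARD13 acts on, was singled out after its values were seen. It differed from scramble by −1.13, −0.04, −1.45 and −1.12 in pools 1, 2, 3 and 4 (SE 0.04), and in pool 2 it was higher than in the other pools by 1.19 ± 0.03 (adjusted p = 2.82e-29, edgeR). With all libraries Rhoa was called lower in pools 1, 3 and 4 too (−1.27, −1.59 and −1.26, SE 0.14) and had −0.18 in pool 2. Without scramble replicate 1, Rhob and Rhoc were called higher in pools 1, 3 and 4. Of 11 genes of the SRGAP family with the SLIT and ROBO signalling genes and F-BAR partners, 2 were higher and 6 lower in pool 1, 0 and 0 in pool 2, 3 and 7 in pool 3, and 3 and 6 in pool 4. Those lower in pools 1, 3 and 4 were Robo1, Robo2, Slit2, Slit3, Srgap1 and Srgap3. Robo1, a receptor of SLIT proteins and also singled out here, differed by −1.08, −0.18, −1.26 and −1.01 (SE 0.06 to 0.07), and with all libraries by −0.70, 0.21, −0.87 and −0.62 (SE 0.43 to 0.44), with no call.

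Over all genes the share called either way was 28.9%, 4.74%, 49.1% and 31.3% in pools 1, 2, 3 and 4, and the counts of partners of the nuclear proteins stand beside that. The p160 coactivators and their partners, 9 genes, had 0 higher and 5 lower in pool 1, 0 and 0 in pool 2, 1 and 6 in pool 3, and 0 and 6 in pool 4. Of 24 BAF genes, 3 were higher and 5 lower in pool 1, 1 and 0 in pool 2, 9 and 8 in pool 3, and 5 and 5 in pool 4. Of 9 WNT targets beside Lbh, 2 were higher and 1 lower in pool 1, 1 and 1 in pool 2, 4 and 2 in pool 3, and 2 and 1 in pool 4. Axin2, a standard target of canonical WNT signalling, was lower in pool 1 (−0.20 ± 0.06), higher in pool 3 (0.32 ± 0.06) and not called in pools 2 (−0.09) and 4 (−0.13). With all libraries Axin2 was not called in any pool (0.02, 0.13, 0.54 and 0.09, SE 0.21).

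Of 12 CCR4-NOT deadenylase genes, which BTG2 works with, 2 were higher and 3 lower in pool 1, 0 and 0 in pool 2, 3 and 5 in pool 3, and 2 and 4 in pool 4. The 4 other BTG and TOB genes had 1 higher and 1 lower in every pool. The 11 BAR-domain sorting nexins had 4 higher and 2 lower in pool 1, 0 and 0 in pool 2, 5 and 2 in pool 3, and 4 and 2 in pool 4. The 15 receptor docking proteins had 1 higher and 3 lower in pool 1, 2 and 0 in pool 2, 3 and 7 in pool 3, and 0 and 2 in pool 4. The 5 MLF genes and partners had 0 called in pools 1 and 2, 2 lower in pool 3 and 1 lower in pool 4. All these counts are by edgeR without scramble replicate 1, and the pools share the 2 scramble libraries left. With all 11 libraries edgeR called far fewer: in pool 3 the BAF list had 1 higher and 4 lower, the FOXO list 3 and 3, the sorting nexins 1 and 1, the WNT targets 1 and 0 and the RHOA list 0 and 1. In pools 1 and 4 the FOXO list then had 1 higher and the RHOA list 1 lower, with 1 sorting nexin lower in pool 4. Every other list had 0 called in every pool, and pool 2 had 0 in all lists.

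Transcript length moved with the difference between scramble replicate 1 and its fellows. Exon lengths, the union of all annotated exons of a gene, were found for 13761 of 14144 genes (97.3%), and genes were put into 5 classes of equal number from short to long. The median log2 ratio of scramble replicate 1 to replicates 2 and 3 was 0.67, 0.29, −0.02, −0.28 and −0.72 from the shortest to the longest class. The same ratio was −1.79 for Ncoa2 (15642 exon bases), −0.74 for Srgap2 (12560), −0.31 for Bcl7a (9490), −1.01 for Stard13 (8594) and −0.97 for Snx30 (7795), all 5 in the longest class. Gab1, in the third class (5082 bases), had −0.47. Lbh (3212 bases) and Btg2 (2743 bases), in the second class, had 0.04 and 0.06. Mlf1, with 1719 bases the shortest of the 9 and the only one in the shortest class, had 1.05.

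Against scramble, the 5 long genes and Gab1 had a smaller excess without scramble replicate 1 than with it, Mlf1 had a larger one, and Lbh and Btg2 moved little. Over all genes, the median log2 difference of pools from scramble with all libraries was −0.29, −0.12, −0.01, 0.08 and 0.20 from the shortest to the longest class, and without scramble replicate 1 it was 0.02, 0.01, 0.00, −0.01 and −0.01. No RNA quality value was at hand, and what set this library apart was not tested.

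**Figure D5:**
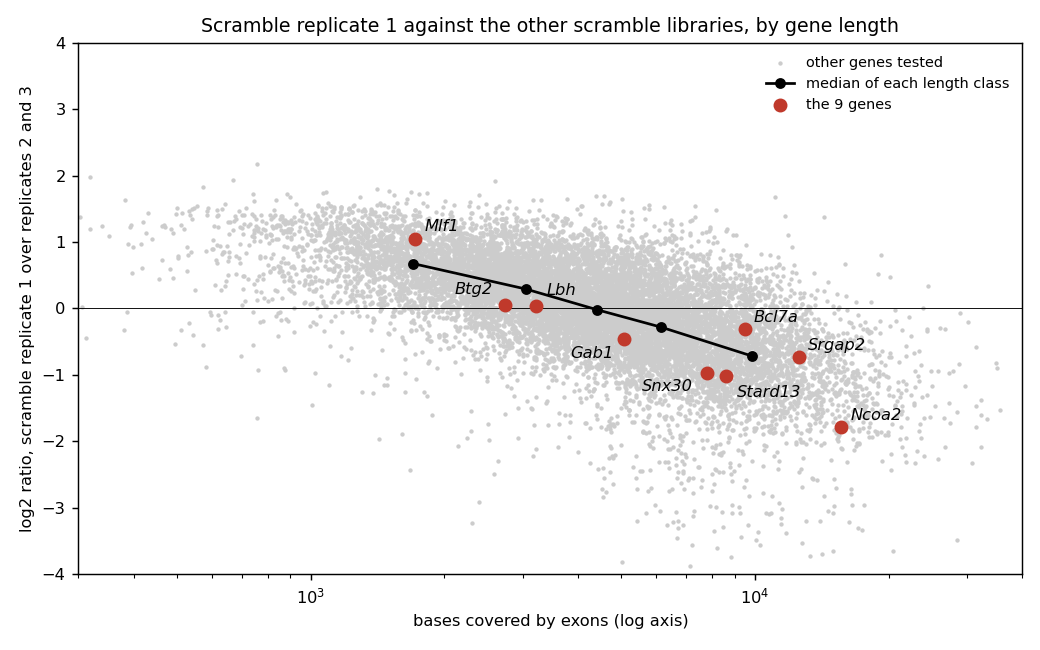
Log2 ratio of scramble replicate 1 to scramble replicates 2 and 3 (CPM plus 0.5) against exon length in bases on a log axis, with the 9 genes marked and the medians of the 5 length classes; a few genes lie beyond the axes. Class medians go down from 0.67 to −0.72, and Ncoa2 (−1.79) and Mlf1 (1.05) are the extremes of the 9.

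Per kilobase of exon, the mean level in pools was 264 CPM per kb for Lbh, 97.8 for Btg2, 23.8 for Stard13, 17.6 for Srgap2, 13.7 for Gab1, 11.2 for Snx30, 10.1 for Mlf1, 5.19 for Ncoa2 and 2.36 for Bcl7a. On this scale Lbh stood at percentile 99.5 of the genes with a length, Btg2 at 97.7 and Bcl7a, the lowest of the 9, at 30.5. The 9 thus ran from some of the most abundant mRNAs of these cells to genes below the median. The exon union overstates the length of a gene whose cells use a shorter transcript.

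Promoter windows, from 250 bases before to 50 after the annotated start, came from RefSeq (GRCm38.p6) and were found for 7 of the 9, not for Bcl7a and Ncoa2. They are shown for Mlf1, whose window alone held a FOXO core motif, and for Btg2 and Srgap2, the members that differed most between pools. The Stard13 window (chr5:151190144-151190443) lies inside the gene as placed above, at an internal start. That of Snx30 (chr4:59805400-59805699) ends before the gene start given above. Capitals mark matches, on either strand, to TGTTTAC (FOXO core), AAGGTCA (monomeric nuclear receptor site), CCAAT (NF-Y) and GGGCGG (SP1), so that a match on the other strand reads CCGCCC or ATTGG.
Mlf1, chr3:67373847-67374146, plus strand: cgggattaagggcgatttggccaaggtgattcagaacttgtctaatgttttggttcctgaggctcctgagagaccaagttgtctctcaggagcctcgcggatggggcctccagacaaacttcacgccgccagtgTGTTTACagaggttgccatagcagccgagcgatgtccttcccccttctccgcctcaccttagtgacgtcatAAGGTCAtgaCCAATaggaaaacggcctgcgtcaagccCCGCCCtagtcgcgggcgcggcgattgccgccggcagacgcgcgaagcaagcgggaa
Srgap2, chr1:131527312-131527611, minus strand: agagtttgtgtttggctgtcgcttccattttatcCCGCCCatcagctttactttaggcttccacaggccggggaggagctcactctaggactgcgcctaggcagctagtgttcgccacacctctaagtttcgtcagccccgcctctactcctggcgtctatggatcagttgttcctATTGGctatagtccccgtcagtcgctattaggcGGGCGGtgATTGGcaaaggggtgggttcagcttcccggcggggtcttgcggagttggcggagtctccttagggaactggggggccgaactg
Btg2, chr1:134079106-134079405, minus strand: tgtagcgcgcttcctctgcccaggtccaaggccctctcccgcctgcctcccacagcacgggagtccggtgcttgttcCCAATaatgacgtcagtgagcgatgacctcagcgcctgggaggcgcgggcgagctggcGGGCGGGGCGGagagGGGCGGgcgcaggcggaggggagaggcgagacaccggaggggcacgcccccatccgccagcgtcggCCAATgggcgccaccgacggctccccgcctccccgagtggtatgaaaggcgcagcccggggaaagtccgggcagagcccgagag

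In the Mlf1 window TGTTTAC began 116 bases before the start, AAGGTCA 45, CCAAT 35 and GGGCGG 7. TGTTTAC was in 1 of 7 member windows and in 3.55% of the windows of 27025 genes, and AAGGTCA was in 1 of 7 and in 4.66%. CCAAT was in 4 of 7 (Btg2, Mlf1, Srgap2 and Stard13) and in 37.9% of all, and GGGCGG in 5 of 7 (Btg2, Gab1, Lbh, Mlf1 and Srgap2) and in 35.9%. The E-box CACGTG, which was in 7.24% of all windows, was in 0 of 7. The TEAD core GGAATG (14.6% of all), the AP-1 site TGACTCA (5.17%) and the ETS site CCGGAAG (9.12%) were also in 0 of 7. GC content was 58.3% for Mlf1, 57.7% for Srgap2 and 72% for Btg2, beside a median of 52.7% over all windows. No match is shared by all 7 windows, and a match or its absence in these windows says nothing of a factor's binding.

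The members resembled one another in level across libraries to different degrees. Over the 10 libraries without scramble replicate 1, Pearson's r of log2 CPM for the 36 pairs had a median of 0.901, from 0.701 to 0.987, and the highest was that of Btg2 with Srgap2. All 9 were chosen to be higher in the pools, which sets much of this. Over the 8 pool libraries alone the median was 0.672, from −0.436 for Mlf1 with Ncoa2 to 0.968 for Btg2 with Srgap2. The libraries of a pool share their siRNAs, so these are 4 conditions rather than 8.

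Among 10751 genes compared over the same 10 libraries, those with the pattern most like each member included Gon4l (r = 0.989) for Snx30, Exd2 (0.989) and Wash1 (0.984) for Lbh, and Osbpl3 (0.974) for Stard13. They were Zfp944 (0.981) and Usp22 (0.980) for Gab1, BC005537 (0.968) and Alcam (0.959) for Mlf1, and Lrch3 (0.964) and Kbtbd2 (0.951) for Bcl7a. For Srgap2 they were Slc35f5 (0.997) and Plin2 (0.996), for Btg2 Acadl (0.992) and Ppm1d (0.991), and for Ncoa2 Morc2a (0.978) and Kif5c (0.975). Of the 18 genes found this way, 2 per member, only Kbtbd2 and Ppm1d were again among the closest with all 11 libraries. These are the highest of many correlations over few conditions and are given as a description.

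In the authors' deposited table, which compares all pools with scramble, 985 of 10136 genes with an adjusted p-value were below 0.05, 404 of them higher (3.99%) and 581 lower. That table gave log2 fold changes of 0.68 for Snx30, 0.58 for Stard13, 0.53 for Srgap2, 0.50 for Btg2, 0.48 for Gab1, 0.45 for Bcl7a and Ncoa2, 0.44 for Lbh and 0.15 for Mlf1. Of the 5 members to which the authors' deposited table gave an adjusted p-value, Lbh, Bcl7a, Btg2 and Srgap2 were below 0.05 and Mlf1 (0.549) was not. Snx30, Stard13, Gab1 and Ncoa2 had neither a p-value nor an adjusted one in that table. The p-value was missing for 2526 genes with a signal. Since the table is the same contrast on the same libraries, it is no second measurement.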

How the data were processed

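Per the labels' protocols, a stranded mRNA kit turned 1.3 µg of total RNA into each library, sequenced as single 75-base reads. Tools named by the submitters' processing notes are cutadapt 1.9.1, FastQC 0.11.5, bcl2fastq 2.15.0, featureCounts 1.5.0-p2, TopHat2 and DESeq2, with the build mm10. Their strand setting, order and other settings are not stated there. The 11 deposited files hold whole-number, unnormalized counts for each gene symbol. The authors' deposited table holds, per the file headers, a mean signal, the log2 fold change and its error, a Wald score and p-values. ERCC lines, 0.268% to 0.788% of a library, were left out of library sizes and tests.

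From the counts, edgeR 4.0.16 (R 4.3.3) gave TMM scaling, the filterByExpr filter over the 5 groups and two-sided quasi-likelihood tests with Benjamini-Hochberg adjustment over all genes kept. All pools against scramble used 2 groups, 8 libraries against 3, which treats the libraries of a pool as independent. Each pool against scramble used 5 groups with 1 estimate of spread. Comparisons among pools used the 8 pool libraries. Exon lengths came from GENCODE M21 on GRCm38. Fits were tested on simulated counts with the same spread in every library and none set apart. That test does not cover fits that hold scramble replicate 1. DESeq2 1.42.0, limma-voom (limma 3.58.1), other scalings and filters, a block on replicate number and leaving out each library were alternatives.

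The 9 genes, the lists of paralogs and partners and the tests were chosen with earlier results of these data known. Named were all 9, Akt1, their closest paralogs, the 2 genes most like each of the 9 (average log2 CPM of at least 2), up to 2 called genes of each list, and all other genes called higher without scramble replicate 1; a few genes under this rule are not reported here. Rhoa, Rhob, Rhoc, Robo1, Robo2, Slit2, Slit3 and Axin2 were named after their values were seen. Precision is limited by 2 or 3 libraries per group, and read counts are not independent molecules.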

Additional observations from a re-analysis of the deposited data

Results flagged for a closer look

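The mRNA level of 6 of the 9 genes differed among the 4 pools by edgeR's test on the 8 pool libraries, as did that of 50% of genes. The adjusted p was 2.27e-12 for Btg2, 5.12e-08 for Srgap2, 2.23e-05 for Snx30, 0.000594 for Lbh, 0.0147 for Mlf1 and 0.0273 for Ncoa2. The choice of the 9 used these pool values. DESeq2 did not call Mlf1 (adjusted p = 0.153) or Ncoa2 (0.167), and edgeR called 0 of the 9 with all scramble libraries in the fit. Btg2 was 0.27 above scramble on the log2 scale in pool 2 and 0.69 in pool 3, without scramble replicate 1.

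By the same edgeR test, 9 of 13 paralogs differed between pools, beside 50% of all genes. The adjusted p was 8.64e-22 for Srgap1, 2.86e-14 for Gab2, 2.58e-10 for Ncoa3, 3.02e-09 for Bcl7b, 6.87e-09 for Dlc1, 6.64e-08 for Srgap3, 1.04e-06 for Ncoa1, 7.95e-05 for Stard8 and 0.00191 for Mlf2. Srgap1 was the paralog with the widest range, from 0.16 in pool 2 to −0.95 in pool 3.

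The targeted gene differed too, with an adjusted p of 3.55e-09 by edgeR for Akt1, which was lowest in pool 2 and highest in pool 3. Each pool had 2 libraries, and what set the pools apart was not tested.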

How the results depend on the processing

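The count for all pools against scramble (1 with all libraries) was 866 in a fit with 5 groups, 1147 in DESeq2, 2 with no filter, 1306 without both pool 2 libraries and 5075 in a 5-group fit without scramble replicate 1 (chosen after seeing the data). Leaving out 1 library gave 1 to 2138, the highest without scramble replicate 3. Against scramble with all libraries, pool 1 (243) had 788 in DESeq2, 159 with no filter and 97 without both pool 2 libraries, and 5 to 4068 with 1 library left out. Pool 2 (1) had 28 in DESeq2 and 1 to 667. Pool 3 (1520) had 2323 and 902 without both pool 2 libraries, and 180 to 6905. Pool 4 (345) had 872, 224 and 133 under the settings given for pool 1, and 8 to 4397. The highest of each range came without scramble replicate 1.

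Any difference among pools (7023) had 303 calls with scramble in the fit and 6096 in that fit without scramble replicate 1. It had 4974 in DESeq2, and 5988 to 6949 with 1 library left out. Of the 9 genes 0 were called with scramble in the fit. The count was 4 in DESeq2 or without scramble replicate 1 in that fit, and 5 to 6 with 1 library left out. With scramble in the fit, pool 1 against the others (498) had 0, pool 2 (6772) had 712, pool 3 (6317) had 233 and pool 4 (404) had 0. DESeq2 gave 235 for pool 1 and 230 for pool 4, and the 5-group fit without scramble replicate 1 gave 251 and 226. With 1 library left out, pool 1 had 174 to 587, pool 2 5250 to 6665, pool 3 4541 to 6146 and pool 4 140 to 407. Listed partners (0) had 11, 14, 15 and 71 calls with 5 groups, in DESeq2, without both pool 2 libraries and with 5 groups without scramble replicate 1, and 0 to 16 with 1 library left out. Of the 18 like genes, 2 remained with all 11 libraries. The cause of these shifts was not tested.

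Replicate numbers did not pair the samples: the correlations of same-numbered deviations were −0.0501 to 0.0669. With the replicate block, pool 1 against scramble had 84 calls, pool 4 144 and any difference 6993. No member changed sign in a call. For Mlf1, the difference of all pools from scramble was −0.01 without scramble replicate 2. With 2 libraries a pool, small differences between pools, such as that of Gab1, were near the limit of what could be called.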
